A study of Mus musculus with 20 samples.

Results

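Lpo, Duox2, and Duoxa2 encode the parts of an epithelial system that makes hydrogen peroxide and turns it into an antibacterial oxidant. The 3 genes were chosen by name for this role, with earlier results of these data known. Their p values and ranks are therefore not independent of that choice. They were read from a table of 12701 genes measured in the proximal colon (PC) of mice fed a Western-type diet with resistant potato starch (RPS). All 3 were present in the table, and their levels over 4 diets and their relations over 20 libraries are described here.

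DUOX2 is a membrane NADPH oxidase of the apical surface of epithelial cells, where it releases hydrogen peroxide toward the lumen, and DUOXA2 is the maturation factor that DUOX2 needs to leave the endoplasmic reticulum and reach that surface. Lactoperoxidase, the product of Lpo, is a secreted haem peroxidase best known from milk, saliva, and airway fluid, which uses hydrogen peroxide to oxidise thiocyanate into hypothiocyanite, an oxidant that damages bacteria. In the gut the DUOX2 system is known for its increase when bacteria come close to the epithelium.

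RNA was sequenced from a PC segment of 20 C57BL/6 mice, an inbred laboratory strain, with 5 libraries per diet and 1 library per mouse. From weaning all mice ate a Western-type diet that imitates what Americans eat (Total Western Diet, TWD) for 6 weeks. For 3 more weeks they ate the TWD alone (0% RPS) or the TWD with 2, 5, or 10% RPS, a raw starch that small intestinal enzymes leave largely intact for the bacteria of the large intestine. All 4 groups therefore shared the strain and the TWD, and no treatment other than the starch distinguished them.

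The libraries held 20581013 to 35083751 counts. All 10 colonocyte markers, all 8 goblet cell markers, and all 6 smooth muscle markers had counts, so the tissue held epithelium and muscle, and none of these 24 genes passed both thresholds in any comparison with 0% RPS. In such a sample, fewer cells of a type and less RNA per cell cannot be told apart. Replicate 2 of the 0% RPS diet stood apart, with a mean distance of 63.8 to the other libraries of its diet over 12348 genes on the log2 scale, whereas each of the other 19 lay at 35.1 to 48.3. It also had the highest smooth muscle score of all libraries, 15.3, against 13.9 to 15.0 in the others (mean of log2 normalised counts). The counts of libraries, fold changes, relations, and ratios that turn on it are given with and without it.

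Duox2 and Duoxa2 are neighbours in the genome and Lpo lies elsewhere. On GRCm39, Duox2 (ENSMUSG00000068452) spans chr2:122109728-122128930 on the minus strand, with 33 exons and a canonical transcript of 6112 bases. Duoxa2 (ENSMUSG00000027225) spans chr2:122129380-122133366 on the plus strand, with 6 exons and 1593 bases. The 2 genes point away from each other, and 449 bases separate their starts. Lpo (ENSMUSG00000009356) spans chr11:87697253-87719369 on the minus strand, with 13 exons and 2927 bases.

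The 250 bases before the start of each canonical transcript are shown because Duox2 and Duoxa2 share the short stretch between them, while their levels followed each other across the libraries. The sequences were read from GRCm39 in the direction of each gene, at chr11:87716940-87717189 (minus strand) for Lpo, chr2:122128931-122129180 (minus strand) for Duox2, and chr2:122129130-122129379 (plus strand) for Duoxa2. Capitals mark matches to the motifs searched, which lie in the Duoxa2 window.
Lpo: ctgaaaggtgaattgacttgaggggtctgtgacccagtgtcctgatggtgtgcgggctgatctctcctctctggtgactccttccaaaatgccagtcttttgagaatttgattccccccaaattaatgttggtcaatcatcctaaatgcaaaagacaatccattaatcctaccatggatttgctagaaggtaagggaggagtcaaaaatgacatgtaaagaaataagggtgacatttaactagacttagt
Duox2: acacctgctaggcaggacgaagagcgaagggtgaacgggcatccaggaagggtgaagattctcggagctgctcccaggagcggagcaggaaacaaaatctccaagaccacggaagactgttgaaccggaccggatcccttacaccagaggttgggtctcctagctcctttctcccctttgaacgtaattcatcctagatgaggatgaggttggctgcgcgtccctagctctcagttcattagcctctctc
Duoxa2: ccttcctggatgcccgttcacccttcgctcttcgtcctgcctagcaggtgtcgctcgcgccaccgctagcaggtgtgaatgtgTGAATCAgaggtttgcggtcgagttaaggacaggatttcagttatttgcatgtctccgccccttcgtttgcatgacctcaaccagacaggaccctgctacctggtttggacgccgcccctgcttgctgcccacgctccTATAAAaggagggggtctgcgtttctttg

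Both strands of these windows were searched for an NF-kB motif, the STAT motif TTCNNNGAA, the AP-1 motif TGANTCA, an interferon-response motif GAAANNGAA, and the TATA motif TATAAA, and the motifs found do not overlap. The Duoxa2 window held the AP-1 letters TGAATCA at 167 to 161 bases before the start and TATAAA at 29 to 24 bases before it. These matches lie in the stretch between the starts of Duox2 and Duoxa2, beyond the end of the Duox2 window. Among 21770 promoters of the same length, 6.2% hold the AP-1 letters, 11.9% TATAAA, 7.6% the NF-kB motif, 7.7% the STAT motif, and 7.6% the interferon-response motif. The Lpo and Duox2 windows held no match to any of the motifs, and a missing match says only that these letters are not in this window. The GC content was 42.0% before Lpo, 54.8% before Duox2, and 56.8% before Duoxa2, against a median of 53.2% over all promoters.

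Reads of 50 bases can be shared between similar or overlapping genes, and the use of strand in the authors' counting is not stated. No 50-base window of Lpo transcripts occurs in another annotated gene. For Duox2, 6.05% of the windows also occur in Duox1, its close relative on the same chromosome. For Duoxa2 no window is shared on the same strand, but 41.06% of them lie in Duoxa1, which overlaps Duoxa2 on the opposite strand. Duox1 and Duoxa1 were not analysed here, so what they could add to Duox2 and Duoxa2 was not tested.

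Levels were compared between genes as normalised counts per kilobase of the canonical transcript. At 0% RPS the mean level was 399 ± 153 for Duox2, 193 ± 20.9 for Lpo, and 84.3 ± 62.1 for Duoxa2 (SD, n = 5). At 10% RPS these levels were 952 ± 179, 446 ± 107, and 315 ± 70.7 (SD, n = 5). Duox2 stood above Lpo and above Duoxa2 in 20 of 20 libraries. The order of the other two was less fixed, since Lpo stood above Duoxa2 in 17 of 20 libraries and below it in replicate 2 of the 0% RPS diet and replicates 2 and 3 of the 5% RPS diet. Over all libraries the mean of Duox2 per kilobase lay at the 78.6th percentile of 12682 genes, Lpo at 59.0, and Duoxa2 at 44.9, so the oxidase was in the upper part of the genes in the table and its maturation factor near the middle.

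Lpo, the peroxidase, was low and even at 0% RPS, and its mean was higher at each level of starch. The 0% RPS libraries held 612, 469, 561, 565.5, and 623 normalised counts (counts divided by DESeq2 size factors), and the 2% RPS libraries held 854.5, 645, 850.5, 774.5, and 963. At 2% RPS all 5 libraries lay above the highest 0% RPS library, although the change there did not pass the thresholds given below. The share of all genes that separate from a diet in this way was not counted, here or for the other genes. The 5% RPS libraries held 1245, 1267, 1212, 919, and 810.2, and the 10% RPS libraries held 1108, 992, 1753, 1178, and 1501. No starch library overlapped the 0% RPS diet, whereas the 3 starch diets overlapped with each other. The spread grew with the level, from a coefficient of variation of 10.8% at 0% RPS to 24% at 10% RPS.

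Duox2, the oxidase, varied more among mice of the same diet. Its normalised counts were 2103, 3950, 2518, 2212, and 1408 at 0% RPS, and 2804, 2292, 2582, 2426, and 4581 at 2% RPS. These 2 diets overlapped, and 1 of the 5 libraries at 2% RPS exceeded the highest 0% RPS library. At 5% RPS the counts were 5570, 7680, 8832, 3398, and 3419, and at 10% RPS they were 4320, 5409, 6148, 5887, and 7326. At 5% RPS replicates 1 to 3 lay above all libraries without starch and replicates 4 and 5 lay within their range, while at 10% RPS all 5 libraries lay above that range. The top of that range was replicate 2 of the 0% RPS diet, and without it the highest library was 2518, which 3, 5, and 5 of the 5 libraries at 2, 5, and 10% RPS exceeded.

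Duoxa2, the maturation factor, had the widest range of the 3 genes. It held 108, 288, 170, 62.1, and 43.5 normalised counts at 0% RPS, and 102, 110.5, 154, 92.0, and 295 at 2% RPS. The highest library of each of these diets was also the highest for Duox2. At 5% RPS the values were 313, 852, 925, 168, and 191, and at 10% RPS they were 454, 493, 683.5, 378, and 502. As for Duox2, replicates 1 to 3 of the 5% RPS diet exceeded the highest 0% RPS library, replicates 4 and 5 did not, and all 5 libraries at 10% RPS did. Without replicate 2 the highest 0% RPS library was 170, and 1, 4, and 5 of the 5 libraries at 2, 5, and 10% RPS exceeded it. Within the 5% RPS diet the highest Duoxa2 library was 5.51 times the lowest, against 2.60 times for Duox2 and 1.56 times for Lpo.

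**Figure D1:**
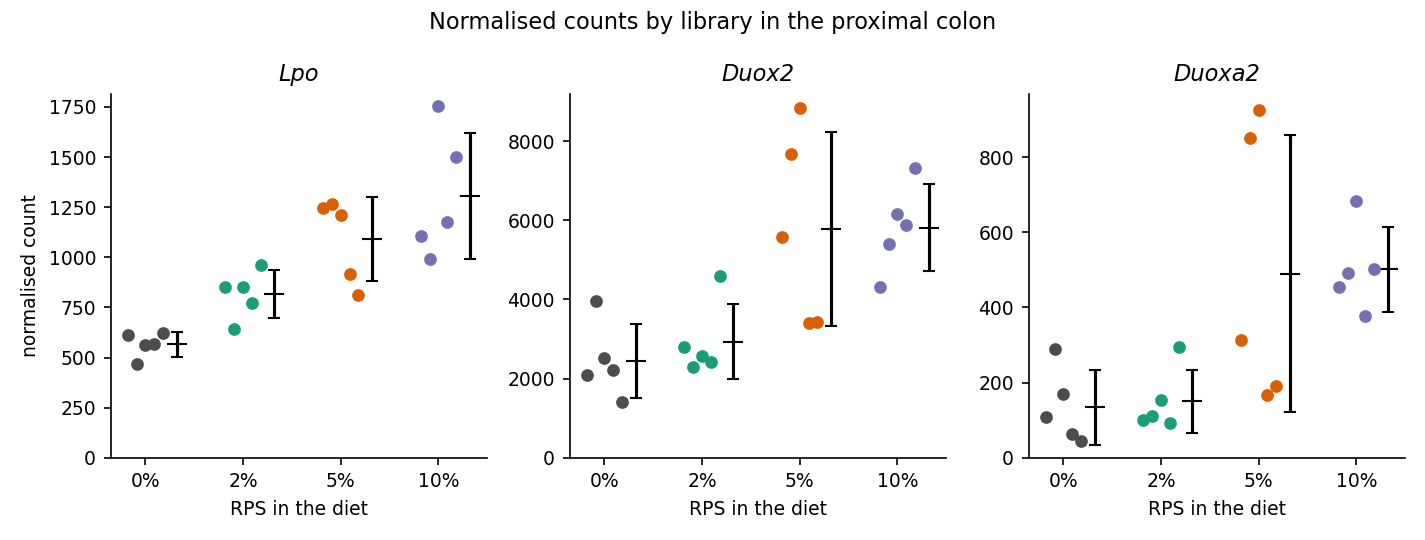
Normalised counts of Lpo, Duox2, and Duoxa2 (y axis, from 0, a separate scale for each gene) in the 5 libraries of each diet (x axis, RPS in the diet), with points for libraries in replicate order and bars for the mean ± SD. All starch libraries exceed the highest 0% RPS library for Lpo, and for Duox2 and Duoxa2 3 of 5 libraries at 5% RPS and all 5 at 10% RPS do so, against a highest 0% RPS library that is replicate 2 for both.

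Each level of starch was set against 0% RPS in 1 DESeq2 fit of all 20 libraries, and a gene passed when its adjusted p was at most 0.05 and its fold change at least 1.5. These comparisons share the 0% RPS libraries. At 2% RPS none of the 3 genes passed, with 0.0239% of 12561 tested genes called higher. Lpo came nearest, with a log2 fold change of 0.53 ± 0.16 (SE, 95% interval 0.22 to 0.84, adjusted p = 0.249, edgeR 0.591), and its unadjusted p of 0.000817 ranked 40 among all genes. Duox2 had a log2 fold change of 0.27 (interval −0.34 to 0.88, adjusted p = 0.836) and Duoxa2 of 0.17 (interval −0.89 to 1.23, adjusted p = 0.951). These intervals leave room for changes in either direction of Duox2 and Duoxa2 at 2% RPS.

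At 5% RPS all 3 genes rose, with 0.334% of the tested genes called higher. Lpo rose by 0.95 ± 0.16 on the log2 scale (SE, adjusted p = 1.27e-05), a 1.93-fold change, and ranked second of all genes by p. With edgeR its adjusted p was 0.0335, where 0.0566% of 12366 genes were called higher. Duox2 rose by 1.25 ± 0.31 (SE, 2.37-fold, adjusted p = 0.0119, edgeR 0.0711), so the oxidase passed with DESeq2 and not with edgeR. Duoxa2 rose by 1.87 ± 0.54 (SE, 3.65-fold, adjusted p = 0.0394, edgeR 0.133), again with DESeq2 alone.

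The calls of the oxidase and its partner at 5% RPS depended on single libraries. Duox2 lost its call without replicate 4 (adjusted p = 0.0560) or 5 (0.0688) of the 0% RPS diet and without replicate 2 (0.0875) or 3 (0.105) of the 5% RPS diet. Duoxa2 lost its call without replicate 1 (adjusted p = 0.0530), 4 (0.146), or 5 (0.1465) of the 0% RPS diet and without replicate 1 (0.0581), 2 (0.1775), or 3 (0.190) among those fed 5% RPS. The log2 fold change stayed between 1.04 and 1.49 for Duox2 and between 1.5 and 2.35 for Duoxa2. Lpo passed at 5% RPS in all 10 fits that left out 1 library, at 0.89 to 1.04.

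At 10% RPS all 3 genes rose as well, with 0.525% of the tested genes called higher. Lpo rose by 1.21 ± 0.16 on the log2 scale (SE, 2.31-fold, adjusted p = 2.59e-10, edgeR 0.00247), with the smallest p of all genes in both tests. Duox2 rose by 1.25 ± 0.31 (SE, 2.39-fold, adjusted p = 0.00518, edgeR 0.0385), and both Lpo and Duox2 thus belonged to the 0.226% of genes that edgeR called higher. Duoxa2 rose by 1.90 ± 0.54 (SE, 3.74-fold, adjusted p = 0.0190), and with edgeR its adjusted p was 0.0704. Lpo and Duox2 passed in all 10 fits that left out 1 library. Duoxa2 lost its call without replicate 4 (adjusted p = 0.0772) or 5 (0.0767) of the 0% RPS diet and without replicate 3 (0.0878) or 5 (0.0609) at 10% RPS, at log2 fold changes of 1.68 to 1.90.

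Without the library that stood apart, replicate 2 of the 0% RPS diet, the changes of Duox2 and Duoxa2 were larger and that of Lpo slightly smaller. At 5% RPS the log2 fold changes became 1.49 for Duox2 (adjusted p = 0.000442), 2.35 for Duoxa2 (0.00245), and 0.89 for Lpo (0.000107). At 10% RPS they became 1.5 for Duox2 (adjusted p = 0.000133), 2.39 for Duoxa2 (0.000881), and 1.15 for Lpo (1.48e-08). Among the 0% RPS libraries, replicate 2 held the most Duox2 and Duoxa2 and the least Lpo.

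The label numbers of 3 libraries lie outside the run of the other 17, namely replicate 5 of the 2% RPS diet and replicates 4 and 5 of the 10% RPS diet, and what the numbers stand for is not stated. Without these libraries Lpo still passed at 10% RPS (log2 fold change 1.18, adjusted p = 7.7e-07). Duox2 (1.12, adjusted p = 0.0629) and Duoxa2 (2.02, adjusted p = 0.0663) then did not pass at 10% RPS, where 3 libraries were left, and both passed at 5% RPS.

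The starch levels were also compared with each other. Between 10% and 2% RPS, Lpo passed with DESeq2 (log2 fold change 0.67 ± 0.16 SE, adjusted p = 0.0223), with 0.0478% of the tested genes called higher, and not with edgeR (adjusted p = 0.389). This call was lost without replicate 2 (log2 fold change 0.60, adjusted p = 0.1485) or 4 (0.66, 0.112) of the 2% RPS diet and without replicate 5 of the 10% RPS diet (0.62, 0.263). Without replicate 3 of the 10% RPS diet DESeq2's filtering gave Lpo no adjusted p, at a log2 fold change of 0.55.

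Duox2 and Duoxa2 differed between 10% and 2% RPS by 0.99 (95% interval 0.38 to 1.60, adjusted p = 0.199) and 1.74 (interval 0.68 to 2.79, adjusted p = 0.190) on the log2 scale and did not pass. Without replicate 5 of the 2% RPS diet, where Duox2 was highest, the change of Duox2 was 1.20 and passed (adjusted p = 0.0492). Between 5% and 2% RPS, with 0% of the tested genes called higher, the log2 fold changes were 0.42 for Lpo, 0.98 for Duox2, and 1.70 for Duoxa2, and none passed (adjusted p = 1 for each).

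Between 10% and 5% RPS the oxidase and its partner had nearly equal means, and with 0.00796% of genes called higher none of the 3 passed. The log2 fold change was 0.01 for Duox2 (95% interval −0.60 to 0.62) and 0.04 for Duoxa2 (interval −1.02 to 1.09), and these intervals include changes of 1.5-fold in both directions. Lpo had a log2 fold change of 0.26 (interval −0.05 to 0.57). At 10% RPS the libraries lay closer together than at 5% RPS, with a coefficient of variation of 18.8% against 42.6% for Duox2 and 22.4% against 75.3% for Duoxa2, a difference in spread that was not tested.

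**Figure D2:**
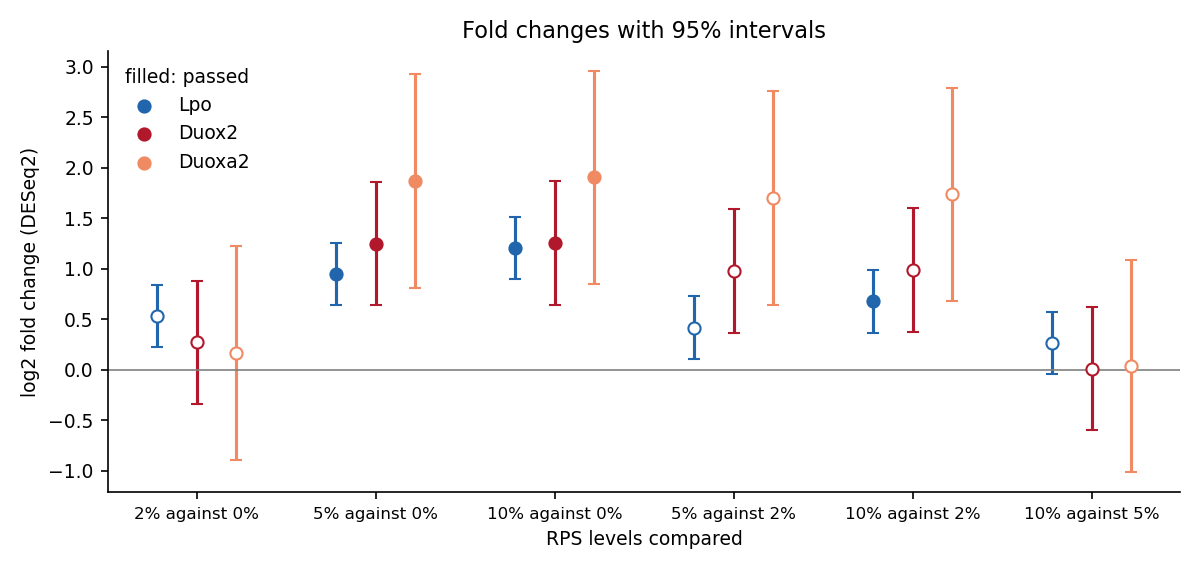
DESeq2 log2 fold changes (y axis) of Lpo, Duox2, and Duoxa2 in the 6 comparisons between RPS levels (x axis), with points for estimates, filled where the gene passed, and bars for 95% intervals without adjustment for the number of genes. All 3 genes pass at 5% and 10% against 0% RPS, Lpo also passes at 10% against 2% RPS, and the values for Duox2 and Duoxa2 between 10% and 5% RPS lie at 0.01 and 0.04.

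Over all diets the 3 genes rose with the percentage of RPS, and 2.4% of 12545 genes had a rising trend at an adjusted p of 0.05 or less. The slope per percent of RPS was 0.113 ± 0.0166 on the log2 scale for Lpo (SE, adjusted p = 9.07e-08, edgeR 0.00397), which had the smallest p of all genes with DESeq2. It was 0.135 ± 0.0329 for Duox2 (adjusted p = 0.00461, edgeR 0.0382) and 0.215 ± 0.0547 for Duoxa2 (adjusted p = 0.00731, edgeR 0.0558). With edgeR, where 0.752% of genes had a rising trend, Lpo and Duox2 passed and Duoxa2 did not. All 3 trends passed in each of the 20 fits that left out 1 library. Among the 2, 5, and 10% RPS diets alone, the slope of Duox2 was 0.108 (adjusted p = 0.286) and that of Duoxa2 0.186 (adjusted p = 0.211), neither of which passed.

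The markers of other cells were read beside these changes. The summed normalised counts of the 10 colonocyte markers ranged from 343000 to 650100 at 0% RPS and from 559400 to 794000 at 10% RPS, and 8 of the 10 had a positive log2 fold change at 10% RPS (median 0.17). With the mean log2 level of these markers as a covariate, the log2 fold change at 10% RPS was 1.18 for Lpo (adjusted p = 2.01e-08), 1.19 for Duox2 (0.0113), and 1.82 for Duoxa2 (0.0185), and all 3 still passed. The colonocyte markers with a negative value at 10% RPS were Aqp8 (−0.93, adjusted p = 0.627) and Slc26a3 (−0.43, adjusted p = 0.385). The score weights the log2 level of each marker equally, unlike the sum, so the markers that vary most move it most. Aqp8 had the largest standard error of the 10 (0.968), with 1653 ± 2710 normalised counts at 0% RPS (SD, n = 5). The share of epithelium in a library was not measured. The summed goblet cell markers ranged from 488300 to 826100 at 0% RPS and from 603700 to 1092000 at 10% RPS, with 8 of 8 positive (median 0.46), and their part in the changes was not tested. The smooth muscle markers ranged from 121300 to 268600 and from 124800 to 211500, with 0 of 6 positive at 10% RPS (median −0.20), and with their level as a covariate the values were 1.20, 1.28, and 1.94, all past the threshold. Named after their values were seen, 3 markers had an adjusted p under 0.05 with a change below the fold threshold. These were Krt20 of colonocytes (log2 fold change 0.45 at 5% RPS, adjusted p = 0.0476, and 0.47 at 10% RPS, adjusted p = 0.0193), Epcam of colonocytes (0.19 at 10% RPS, adjusted p = 0.00666), and Spdef of goblet cells (0.46 at 10% RPS, adjusted p = 0.0493).

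Of the markers of white blood cells, the 6 for macrophages ranged from 1294 to 3500 summed normalised counts at 0% RPS and from 1579 to 2170 at 10% RPS, and 3 of 5 for B and plasma cells ranged from 2134 to 11950 and from 2742 to 5406. A single eosinophil marker was analysed, at 86.4 to 197 normalised counts at 0% RPS and 84.1 to 173 at 10% RPS. None of these genes passed. No neutrophil marker and no T cell marker was analysed here. The related peroxidase genes Mpo of neutrophils and Epx of eosinophils were not analysed here either.

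Duox2 and Duoxa2 followed each other closely across the libraries. Over the 20 libraries the log2 levels had a Pearson r of 0.96 (permutation test, 100000 resamples, two-sided, p = 1e-05, the smallest these can give, adjusted over 6 tests 6e-05) and a Spearman rho of 0.95 (permutation p = 1e-05, adjusted 6e-05). Since both genes changed with diet, the relation was also computed on deviations from the diet means. It held there, with an r of 0.90 (permutation p = 4e-05, adjusted 8e-05) and a rho of 0.83 (permutation p = 0.00023, adjusted 0.000345). Without the 2 libraries farthest from the median of Duox2, replicate 5 of the 0% RPS diet and replicate 3 of the 5% RPS diet, r was 0.94 over all libraries and 0.85 within diets. In single diets of 5 libraries each, r was 0.924, 0.891, 0.979, and 0.262 at 0, 2, 5, and 10% RPS, and whether it differs between diets was not tested. At 0, 2, and 5% RPS the library with the most Duox2 also held the most Duoxa2, whereas at 10% RPS replicate 5 held the most Duox2 and replicate 3 the most Duoxa2, and replicate 4 held the least Duoxa2 but not the least Duox2. Among the 11978 genes that averaged 50 or more normalised counts, Duoxa2 was the gene most like Duox2 by r, over all libraries and within diets.

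Lpo followed Duox2 and Duoxa2 across diets, and less closely within them. With Duox2 the pooled r was 0.80 (permutation p = 4e-05, adjusted 8e-05) and rho was 0.85 (permutation p = 2e-05, adjusted 6e-05). Within diets r fell short of the threshold at 0.43 (permutation p = 0.0783, adjusted 0.0939), while rho was 0.50 (permutation p = 0.0389, adjusted 0.0467). Without replicate 2 of the 0% RPS diet and replicate 3 of the 10% RPS diet, the libraries farthest from the median of Lpo, r was 0.91 over all libraries and 0.71 within diets (adjusted permutation p = 0.0101). Without replicate 2 of the 0% RPS diet alone the r within diets was 0.65 (adjusted permutation p = 0.0103), and without replicate 5 of that diet alone it was 0.54 (0.0375). The relation of Lpo and Duox2 within diets thus rested on how these libraries were treated. At 0% RPS the order of the 5 libraries for Lpo was the reverse of that for Duox2, while at 2% RPS the order was the same for both, and at 5 and at 10% RPS the 3 libraries with the most Lpo were the 3 with the most Duox2. The difference between diets was not tested.

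With Duoxa2, the pooled r of Lpo was 0.74 (permutation p = 0.00016, adjusted 0.00024) and rho was 0.78 (permutation p = 9e-05, adjusted 0.00018). Within diets r was 0.33 (permutation p = 0.163, adjusted 0.163) and rho was 0.37 (permutation p = 0.118, adjusted 0.118), so no relation beyond that of the diets was detected. Without the 2 farthest libraries named above, r was 0.84 over all libraries and 0.53 within diets (adjusted permutation p = 0.0560). Without replicate 2 of the 0% RPS diet alone the r within diets was 0.54 (adjusted permutation p = 0.0240). As with Duox2, the 0% RPS library with the most Lpo, replicate 5, held the least Duoxa2, and the one with the least Lpo, replicate 2, held the most.

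**Figure D3:**
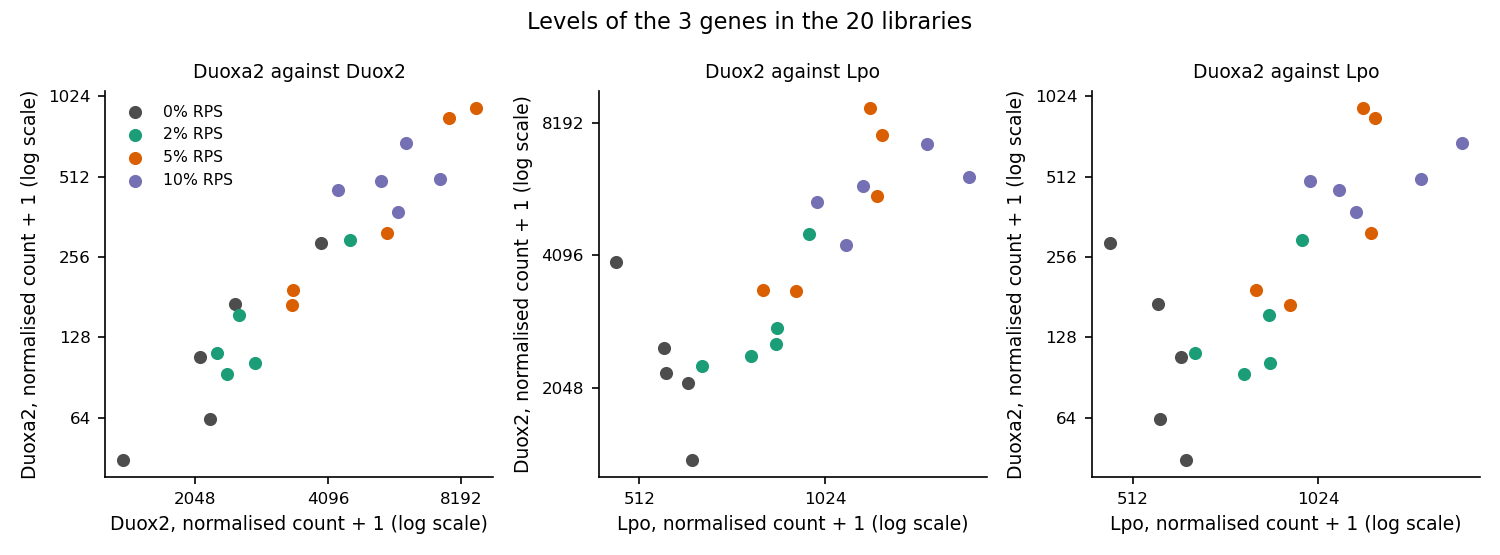
Normalised count + 1 of one gene against another in the 20 libraries, coloured by diet, with both axes on a log scale, for Duoxa2 against Duox2 (left), Duox2 against Lpo (middle), and Duoxa2 against Lpo (right). In the left panel libraries with more Duox2 also hold more Duoxa2 (r = 0.96), while in the middle and right panels replicate 2 of the 0% RPS diet lies above the other libraries of low Lpo.

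The proportions of the 3 transcripts were compared as log2 ratios within a library. Per kilobase, Duoxa2 stood at 10.8 to 28.02 per 100 of Duox2 in the 0% RPS libraries, 13.9 to 24.7 at 2% RPS, 19.0 to 42.6 at 5% RPS, and 24.6 to 42.7 at 10% RPS. The maturation factor was thus less abundant than the oxidase in every library, and the diets overlapped. Compared with 0% RPS, the log2 ratio of Duoxa2 to Duox2 differed by 0.04 at 2% RPS (exact permutation test of 252 splits, two-sided, p = 0.897, adjusted over 9 tests 0.897), by 0.60 at 5% RPS (exact p = 0.143, adjusted 0.429), and by 0.87 at 10% RPS (exact p = 0.0397, adjusted 0.357). The last difference did not pass after adjustment, and 3 of the 5 libraries at 10% RPS lay above the highest 0% RPS library. With that diet's replicate 2 left out, the differences were 0.20, 0.76, and 1.03 (exact permutation, adjusted p = 0.661, 0.202, and 0.0714), and 4 of 5 libraries at 10% RPS lay above the highest. The smallest p these splits allow is 0.00794. After adjustment over 9 tests, 1 ratio at that p could not pass unless another came near it. A ratio that did not pass, here or for Lpo below, is therefore not shown to be unchanged.

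Lpo stood at 24.8 to 92.4 per 100 of Duox2 per kilobase at 0% RPS, 43.9 to 68.8 at 2% RPS, 28.7 to 56.5 at 5% RPS, and 38.3 to 59.5 at 10% RPS. The peroxidase stayed below the oxidase throughout. All 3 starch diets fell within the range without starch, whose lowest value was replicate 2, and without it the range began at 46.5 and 1, 2, and 3 libraries at 2, 5, and 10% RPS lay below it. The log2 ratio of Lpo to Duox2 differed from 0% RPS by 0.22, −0.29, and −0.13 at 2, 5, and 10% RPS (exact permutation p = 0.571, 0.468, and 0.667, adjusted 0.857, 0.843, and 0.857). That of Lpo to Duoxa2 differed by 0.18, −0.88, and −1.004 (exact permutation p = 0.802, 0.246, and 0.119, adjusted 0.897, 0.554, and 0.429), and none of these 6 differences passed. With that library left out they were −0.04, −0.55, and −0.39 for Lpo to Duox2 (exact permutation, adjusted p = 0.881, 0.202, and 0.202) and −0.23, −1.30, and −1.42 for Lpo to Duoxa2 (exact permutation, adjusted p = 0.661, 0.202, and 0.0714), and again none passed.

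The other genes of the pathway were taken from 7 lists, of which 80 genes were analysed. Over all 12561 tested genes, 0.0239%, 0.334%, and 0.525% were called higher at 2, 5, and 10% RPS. A short list in which 0 genes passed is therefore near that share, and its count is no result about the list. Among sources of peroxide and superoxide, 8 of 15 listed genes were analysed, and Duox2 and Duoxa2 were those that passed, at 5 and at 10% RPS. The 6 others, parts of NADPH oxidases of the NOX1 and NOX2 type and their small GTPases, had a median log2 fold change of 0.07 at 10% RPS, against 0 over all genes. The highest of them per kilobase were Rac1, a GTPase used by several oxidases (2049 normalised counts per kilobase, log2 fold change 0.12 at 10% RPS, adjusted p = 0.176), and Cyba, the p22phox subunit (1895, log2 fold change 0.22, adjusted p = 0.171). Neither passed.

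Among haem peroxidases and relatives, 4 of 7 listed genes were analysed, and Lpo alone passed. The log2 fold change at 10% RPS was −0.39 for Ptgs1, the cyclooxygenase of most tissues (adjusted p = 0.0887), and −0.07 for Pxdn, peroxidasin of the extracellular matrix (adjusted p = 0.853). For the carriers of thiocyanate and related anions, 3 of 6 listed genes were analysed and 0 passed. The log2 fold change was −0.09 for Cftr, the apical channel that also conducts thiocyanate (adjusted p = 0.692), and −0.43 for Slc26a3, an anion exchanger that is also one of the colonocyte markers (adjusted p = 0.385). Both were well measured, with means of 3000.0 normalised counts for Cftr and 5172 for Slc26a3.

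None of the genes that remove peroxide passed, as was the case for nearly all tested genes, of which 0.525% were called higher at 10% RPS. All 24 listed genes were analysed, with a median log2 fold change of 0.11, 0.05, and 0.04 at 2, 5, and 10% RPS, and 16, 16, and 17 of them positive. Txn1, thioredoxin (19040 normalised counts per kilobase), had a log2 fold change of 0.02 at 10% RPS (adjusted p = 0.955), and Gpx1, the glutathione peroxidase of the cytosol (5714), had 0.18 (adjusted p = 0.306). Prdx1, a peroxiredoxin named after its value was seen, had an adjusted p of 0.0284 at 10% RPS with a log2 fold change of 0.30, below the fold threshold.

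Of the targets and regulators of NRF2, the factor that turns on antioxidant genes, 12 of 13 were analysed and 0 passed. Their median log2 fold change was 0.09, 0, and 0.04 at 2, 5, and 10% RPS. Taldo1 and Tkt, which recycle sugar phosphates in the pentose phosphate pathway, had log2 fold changes of 0.19 (adjusted p = 0.246) and 0.01 (adjusted p = 0.963) at 10% RPS.

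Epithelial genes known to rise on contact with bacteria included the largest changes of these lists. Of 16 listed genes 10 were analysed, and 0, 4, and 5 of them passed at 2, 5, and 10% RPS, all higher, with median log2 fold changes of 0.29, 0.79, and 0.67. The list was written with earlier results of these data known, so its count is not independent evidence of a direction. At 5% RPS those that passed were Reg3b, Reg3g, and Reg3a, which encode secreted antibacterial lectins, and Fut2, a fucosyltransferase of the mucosal surface. At 10% RPS Ido1, which degrades tryptophan, passed too. Of all tested genes, DESeq2 called 0.334% and 0.525% higher at 5 and 10% RPS. With edgeR 0 and 1 of the 10 passed at 5 and 10% RPS, where 0.0566% and 0.226% of all genes were called higher.

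The values of these 5 genes spread widely. The log2 fold change at 10% RPS was 4.06 for Reg3b (adjusted p = 0.00137), 3.46 for Reg3g (0.0190), and 2.13 for Reg3a (0.00358). It was 0.81 for Fut2 (adjusted p = 0.0190, edgeR 0.0896) and 1.18 for Ido1 (adjusted p = 0.00124, edgeR 0.0385). Of the most abundant others, Pigr, the receptor that carries IgA across the epithelium, had 0.06 (adjusted p = 0.785), and Saa1, serum amyloid A, had 0.40 (adjusted p = 0.307).

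Retnlb, a secreted antibacterial protein of goblet cells named after its values were seen, did not pass and its direction turned on 1 library. Its normalised count was 6180 in replicate 2 of the mice without starch, while the other 4 libraries of that diet held 110 to 224, those at 5% RPS 180.5 to 783, and those at 10% RPS 225 to 506. The log2 fold change was −1.29, −1.38, and −1.79 at 2, 5, and 10% RPS (adjusted p = 0.691, 0.450, and 0.265), and without that library it was 1.81, 1.72, and 1.31 (adjusted p = 0.287, 0.0476, and 0.125), which passed at 5% RPS.

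Of the sensors and signalling genes that act before Duox2, 19 of 21 were analysed, and 1, 0, and 1 passed at 2, 5, and 10% RPS. That gene was Atf3, a stress-induced transcription factor, with a log2 fold change of 1.01 at 2% RPS (adjusted p = 0.0160) and 0.82 at 10% RPS (adjusted p = 0.0121, edgeR 0.0704). At 2% RPS it did not pass with edgeR. Its call there was also lost without replicate 4 or 5 of the 0% RPS diet or replicate 1 or 2 of the 2% RPS diet. The trend of Atf3 over RPS had an adjusted p of 0.398. Mapk14, the p38 kinase, had 0.02 (adjusted p = 0.874), and Il17rc, a subunit of the interleukin-17 receptor, had 0.18 (adjusted p = 0.289) at 10% RPS. Nfkbiz, an NF-kB cofactor named after its value was seen, had an adjusted p of 0.00959 at 10% RPS with a log2 fold change of 0.51, below the fold threshold.

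**Figure D4:**
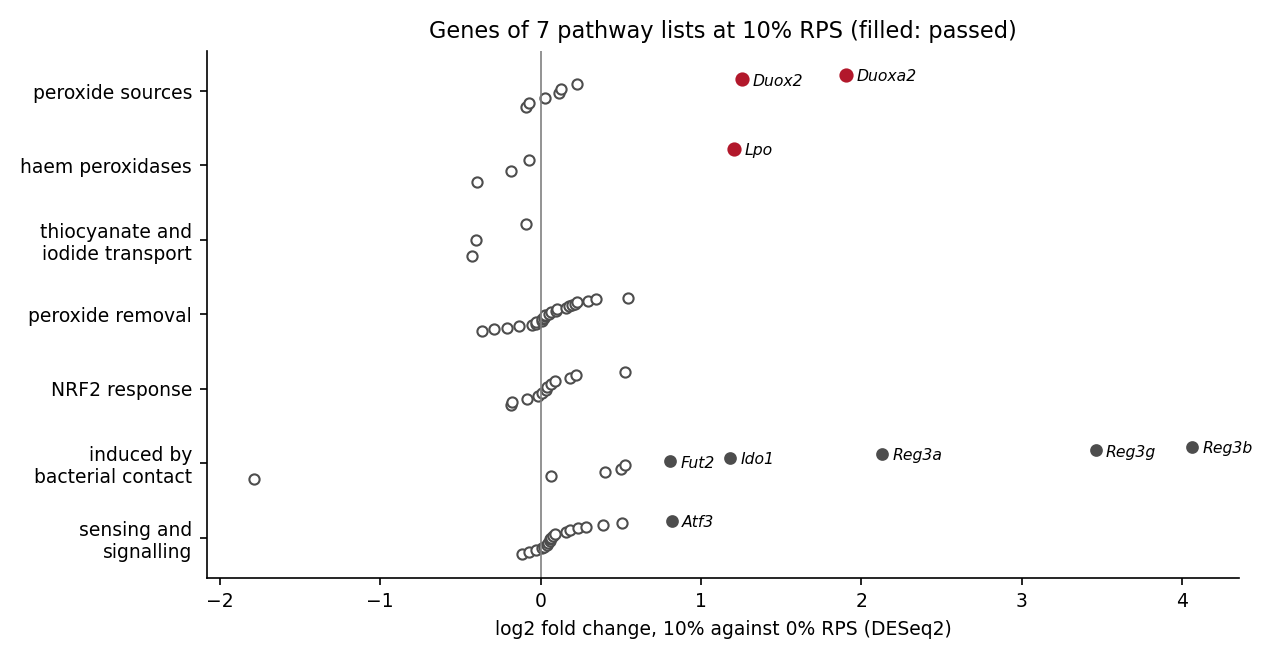
DESeq2 log2 fold changes at 10% against 0% RPS (x axis) of the genes of 7 lists (y axis, points of a list spread vertically by rank), filled where the gene passed and red for Duox2, Duoxa2, and Lpo. The genes that passed at 10% RPS are Duox2, Duoxa2, Lpo, Fut2, Ido1, Reg3a, Reg3g, Reg3b, and Atf3, while those of peroxide removal, NRF2, and anion transport lie between −0.43 and 0.55.

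The genes most like each member were found by Pearson r of log2 levels over the 20 libraries, among the 11978 genes that averaged 50 or more normalised counts, as a description without a test. Since the libraries share diets, the r of deviations from the diet means is given beside it. For Lpo these were Chn2, a Rac GTPase-activating protein (r = 0.89, within diets 0.67), the long noncoding RNA gene Gm33424 (0.88, 0.57), Gda, guanine deaminase (0.87, 0.64), Muc13, a mucin of the cell surface (0.87, 0.52), and Sptssb, a subunit of serine palmitoyltransferase (0.86, 0.69). Duox2 ranked 27 and Duoxa2 ranked 88 in likeness to Lpo (r = 0.80 and 0.74). Within diets they ranked 621 and 1410 (r = 0.43 and 0.33).

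For Duox2 the list was led by Duoxa2 (r = 0.96, within diets 0.90), followed by Cpne2, a copine (0.92, 0.78), Rdh16, a retinol dehydrogenase (0.90, 0.75), Lap3, leucine aminopeptidase (0.90, 0.89), and Scnn1b, a subunit of the epithelial sodium channel (0.90, 0.77). For Duoxa2 it was led by Duox2, followed by Cpne2 (0.93, 0.82), Smap2, an ARF GTPase-activating protein (0.92, 0.89), Stat3, a transcription factor that acts after interleukin-22 and interleukin-6 receptors (0.90, 0.80), and Rdh16 (0.89, 0.76). Within diets Duox2 ranked 2 in likeness to Duoxa2. Cpne2 and Rdh16 stood on both lists, and none of the 5 genes most like Lpo was on either. Stat3 had an adjusted p of 0.0190 at 10% RPS with a log2 fold change of 0.39, below the fold threshold.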

How the data were processed

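RNA from the proximal colon was sequenced by the authors on 1 side of each fragment, to 50 bases, after stranded mRNA library preparation. Per the study's methods, low-quality bases and ambiguous reads were removed, and reads were aligned to GRCm39 and counted in CLC Genomics Workbench. The deposited table holds raw counts per Ensembl gene, which the authors did not normalise or pool. The annotation, the use of strand, the handling of reads with several matches, and the filter that left 12701 genes are not given in the sources used here.

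Each library took its diet from the treatment in its label and was matched to columns by the number in the label. Symbols, coordinates, and lengths were those of GENCODE M39 (GRCm39), which held 12682 of the identifiers. Total counts had a median of 26354926.5 per library, a depth at which Duoxa2, the lowest of the 3 genes, had 42 counts or more. The mice are separate animals, so p values measure the spread between mice. Cage and litter are not given in the sources used here, so their part in differences between diets could not be tested.

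Raw counts were tested in R (version 4.3.3) by DESeq2 (version 1.42.0), with diet as the only term, all 20 libraries, and Benjamini-Hochberg adjusted p over all genes. For the trend, RPS percentage was numeric and no fold change was required. edgeR (version 4.0.16), with TMM factors and the quasi-likelihood test on 12366 genes, was the alternative. Adjusted p values come from DESeq2 except where edgeR or a permutation test is named. The DESeq2 step was tested on simulated counts. Correlations and ratios used log2(normalised count + 1) in Python (version 3.11.15).

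The 3 genes, the lists, and the tests were chosen with earlier results of these data known. The genes named were the 3 members, every list gene that passed at any starch level and the 2 others of each list with the highest level per kilobase, and the 5 genes most like each member. Other genes are said to have been named after their values were seen. Alternatives were edgeR, TMM size factors, a minimum of 10 counts in 5 libraries (12374 genes), no independent filtering, colonocyte or smooth muscle covariates, omission of 3 libraries, the compared diets alone, shrunken fold changes, other scales for correlations, a pseudocount of 0.1 for ratios, and each library left out.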

Additional observations from a re-analysis of the deposited data

Results flagged for a closer look

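At 2% RPS, replicate 5 stood at 4581 normalised counts of Duox2, while the other 4 libraries of that diet held 2292 to 2804. The gap to the nearest library was 0.776 of the range of the diet, beyond Dixon's 95% critical value for 5 samples. It was the only such value in 24 groups examined (3 genes and 3 ratios in 4 diets), of which chance marks about 1 in 20. The same library was also the highest of its diet for Lpo and Duoxa2, and its label number is one of the 3 outside the run of the others. Without it the difference of Duox2 between 10% and 2% RPS was 1.20 on the log2 scale and passed (adjusted p = 0.0492).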

How the results depend on the processing

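The increases of Lpo at 5 and 10% RPS and its trend kept their direction and passed under every alternative run, with log2 fold changes of 0.89 to 1.04 and 1.08 to 1.29 when 1 library was left out. With edgeR, the values that no longer passed were Lpo between 10% and 2% RPS (0.67), Duox2 at 5% RPS (1.25), Duoxa2 at 5% and 10% RPS (1.87 and 1.90), and the trend of Duoxa2 (0.21). Among the genes of the pathway lists other than the 3 members, edgeR called 0, 0, and 1 higher at 2, 5, and 10% RPS, against 1, 4, and 6 with DESeq2. Shrunken fold changes fell below the fold threshold for Duox2 (0.38 at 5 and at 10% RPS) and Duoxa2 (0.23 at both). In fits of the 2 compared diets alone, Duox2 (1.25) and Duoxa2 (1.87) did not pass at 5% RPS. Among the starch diets alone the trends of Duox2 (0.108) and Duoxa2 (0.186) did not pass.

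Without the 3 libraries of distant label numbers, Lpo between 10% and 2% RPS (0.72), Duox2 at 10% RPS (1.12), and Duoxa2 at 10% RPS (2.02) did not pass, and the sign turned for Duoxa2 at 2% RPS (−0.23) and Duox2 between 10% and 5% RPS (−0.13). With the colonocyte covariate the sign turned between 10% and 5% RPS for Duox2 (−0.04) and Duoxa2 (−0.08). None of the values whose sign turned had passed. Within diets the r of Lpo with Duox2 passed without log (0.57) and without the 2 farthest libraries (0.71), and that with Duoxa2 passed without log (0.53). The causes were not tested.

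With 1 library left out, the log2 fold change ranged from 1.04 to 1.49 for Duox2 and 1.5 to 2.35 for Duoxa2 at 5% RPS, from 1.68 to 2.39 for Duoxa2 at 10% RPS, and from −0.23 to 0.65 for Duoxa2 and 0.05 to 0.51 for Duox2 at 2% RPS. Between 10% and 2% RPS it ranged from 0.60 to 0.76 for Lpo and 0.89 to 1.20 for Duox2, and between 10% and 5% RPS from −0.13 to 0.21 for Duox2, −0.18 to 0.40 for Duoxa2, and 0.13 to 0.34 for Lpo. The list genes called higher numbered 0 to 2, 2 to 6, and 3 to 7 at 2, 5, and 10% RPS. Within diets the r of Lpo ranged from 0.32 to 0.65 with Duox2 and from 0.23 to 0.54 with Duoxa2. The log2 ratios ranged from −0.14 to 0.20 (Duoxa2 to Duox2), −0.04 to 0.44 (Lpo to Duox2), and −0.23 to 0.54 (Lpo to Duoxa2) at 2% RPS, from −0.55 to −0.07 (Lpo to Duox2) and −1.30 to −0.52 (Lpo to Duoxa2) at 5% RPS, and from −0.39 to 0.08 (Lpo to Duox2) at 10% RPS, none of which passed. Without replicate 2 of the 0% RPS diet the sign of Retnlb turned at 2, 5, and 10% RPS (1.81, 1.72, and 1.31) and so did the r of Ido1 with Duox2 within diets (0.13). In 8 fits DESeq2 gave a member no adjusted p, and these are left out. No paired analysis was possible because replicates were numbered within each diet and no number in the labels links diets.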

Other observations

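The genes of the bacterial-contact list were set beside the 3 genes within diets, a comparison chosen after the values were seen. Il18, which encodes a cytokine made by the epithelium and did not pass at any starch level (log2 fold change 0.74 at 5% RPS, adjusted p = 0.0899), followed Duox2 and Duoxa2 most closely with all libraries kept. On deviations from the diet means its r was 0.86 with Duox2 (permutation test, 100000 resamples, two-sided, p = 0.00014, adjusted over 60 tests 0.0007, rho 0.83, permutation p = 0.0003, adjusted 0.0012) and 0.87 with Duoxa2 (permutation p = 7e-05, adjusted 0.000467, rho 0.84, permutation p = 0.00033, adjusted 0.00124). Without the 2 libraries farthest from the median of the x gene these were 0.86 and 0.87. With Lpo the r of Il18 within diets was 0.23 (permutation p = 0.283, adjusted 0.354, rho 0.37, permutation p = 0.111, adjusted 0.163), and 0.49 without the 2 libraries farthest from the median of Lpo. With replicate 2 of the 0% RPS diet alone left out, an alternative chosen after the values were seen, it was 0.49 and passed (permutation, adjusted p = 0.0449). Lpo passed within diets with Reg3a (r = 0.467, permutation, adjusted p = 0.0397, rho 0.459, adjusted 0.0657). It also passed with Saa3, a relative of Saa1 (r = 0.494, permutation, adjusted p = 0.0429, rho 0.522, adjusted 0.0444). Without that library these r values were 0.399 and 0.431, and neither passed (permutation, adjusted p = 0.152 and 0.154). With all libraries no other gene of the list passed with Lpo by r.

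Fut2 followed the oxidase within diets as well, with an r of 0.75 (permutation p = 0.00213, adjusted 0.00752, rho 0.73, permutation p = 0.00157, adjusted 0.00496), and 0.73 without the 2 farthest libraries. So did Retnlb, with an r of 0.73 (permutation p = 0.00093, adjusted 0.00349, rho 0.75, permutation p = 0.00041, adjusted 0.00145) and 0.71 without the 2 farthest libraries, and Reg3g, with an r of 0.69 (permutation p = 0.00763, adjusted 0.0191, rho 0.74, permutation p = 0.00157, adjusted 0.00496) and 0.63. With that same 0% RPS library left out, the r with Duox2 was 0.82 for Il18, 0.85 for Fut2, 0.69 for Retnlb, 0.82 for Reg3g, and 0.13 for Ido1, and the first 4 passed (permutation, adjusted p = 0.0024, 0.00116, 0.0130, and 0.00116). Reg3b, Reg3a, and Saa3 passed then too, at 0.773, 0.745, and 0.675 (permutation, adjusted p = 0.0024, 0.0065, and 0.0340). With all libraries their r was 0.526, 0.11, and 0.117, and none passed (permutation, adjusted p = 0.0675, 0.737, and 0.737). Saa1 and Pigr did not pass with Duox2 in either case. With Duoxa2 and all libraries, Fut2 (r = 0.69, permutation, adjusted p = 0.0159) and Retnlb (0.664, 0.0156) passed within diets. Reg3g (0.593, 0.0527) and Reg3b (0.415, 0.169) did not. Without replicate 2 of the 0% RPS diet Retnlb no longer passed with Duoxa2 (0.572, permutation, adjusted p = 0.0567). Reg3g (0.719, 0.0163) and Reg3b (0.644, 0.0253) then passed. Ido1, which rose at 10% RPS, had an r within diets of −0.16 with Duox2 (permutation p = 0.549, adjusted 0.646, rho −0.02, permutation p = 0.952, adjusted 0.952). Both Fut2 and Ido1 rose at 10% RPS, and the difference between their r values was not tested.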
